A study of Mus musculus with 9 samples.

Results

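The receptors that microglia use to sense antibody, together with the related leukocyte immunoglobulin-like receptors, were followed as 10 genes chosen by name: Fcgr1, Fcgr2b, Fcgr3, Fcgr4, Fcer1g, Fcgrt, Fcrls, Lilrb4a, Pirb and Lilra5. All 10 were present among the 22036 genes of the deposited per-library table, and all 10 passed the filter on low values that left 14955 genes for testing. RNA was sequenced from microglia, the resident macrophages of the brain, of wild-type female C57BL/6 mice aged 6 months (young), 15 months (middle-aged) or 23 months (old), with no treatment named in the labels. Each age had 3 libraries. Each library was made from cells of 3 mice that were mixed before RNA was extracted, so a replicate is a pool and the spread between single mice was not measured. The cells were sorted by flow cytometry and the gate is not stated in the labels used here.

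Fc gamma receptors bind the constant part of IgG. Activating receptors such as those encoded by Fcgr1, Fcgr3 and Fcgr4 signal through the common gamma chain, encoded by Fcer1g, whose cytoplasmic activation motif (ITAM) recruits Src-family kinases and Syk to drive engulfment of antibody-coated material. The receptor encoded by Fcgr2b instead carries an inhibitory motif (ITIM) that recruits phosphatases, and Pirb and Lilrb4a encode inhibitory receptors of the immunoglobulin-like family that work in the same way. Fcgrt encodes the neonatal Fc receptor, which rescues IgG and albumin from lysosomal breakdown, and Fcrls encodes an Fc receptor-like protein that is widely used as a marker of homeostatic microglia.

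Values are given on the log2 scale of the deposited table, and the read depth behind them is unknown. How the authors transformed them is not stated, so fold changes describe these values only. The microglial marker genes were high in all libraries, from a mean of 14.25 for Sall1 to 18.78 for Csf1r over 8 genes. Markers of other cells were present too, and among neutrophil genes Ngp reached a mean of 17.58. Old replicate 3 stood apart from the other 8 libraries on the first principal component, at 29.9 against -14.4 to 5.90, so the changes of the receptor genes whose old and young libraries did not overlap are also given without it. In bulk RNA, fewer cells of a type and less RNA per cell cannot be told apart.

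Between 6 and 23 months the receptors moved in different directions. In the deposited values Fcgr4, an activating IgG receptor, was 1.50-fold higher in old than in young microglia. Fcrls was lower, at 0.766 of the young level. These were the 2 of 10 genes that passed the test. The log2 changes in the authors' deposited table were larger in size, 0.81 for Fcgr4 and -0.47 for Fcrls, beside 0.58 and -0.39 here. Fcer1g, the shared signalling chain, was 1.28-fold higher and Fcgrt was at 0.772 of the young level, but neither passed. Fcrls and Fcer1g lay close to the threshold on either side, with limma adjusted p of 0.0494 and 0.0518. Fcgr1, Fcgr2b, Fcgr3, Lilra5 and Lilrb4a had overlapping values in young and old libraries. By limma's moderated test with Benjamini-Hochberg adjustment at 0.05, the background of old against young was 1.7% of all genes called higher and 0.301% called lower, or 2% in either direction. The median change of the 10 genes was 0.06, beside -0.01 over all genes tested.

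**Figure D1:**
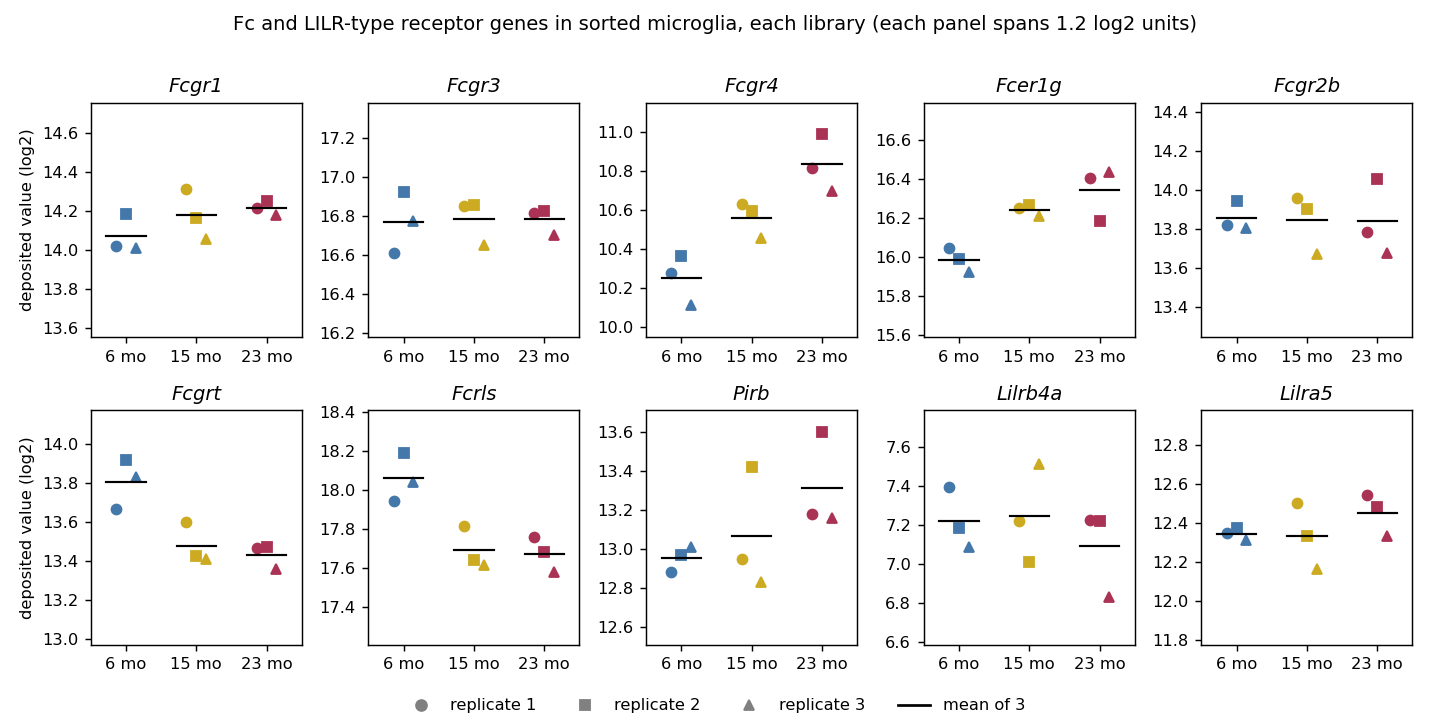
Deposited log2 value of each of the 10 receptor genes in the 9 libraries, by age, with the mean of the 3 libraries of each age; each panel spans the same log2 range around the mean of its gene. Fcgr4 lies from 10.11 to 10.36 in young and from 10.70 to 10.99 in old libraries, while Fcgr3 runs from 16.61 to 16.92 over all 9.

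Among the activating receptors, Fcgr4 was the one that rose. Fcgr4 encodes a receptor of intermediate affinity for IgG2 subclasses. Its values were 10.28, 10.36 and 10.11 in the young libraries, 10.63, 10.59 and 10.46 in the middle-aged ones and 10.82, 10.99 and 10.70 in the old ones. Every middle-aged library was above every young one, and every old library was above every middle-aged one. The log2 difference of old against young was 0.58 ± 0.11 (SE, n = 3 libraries per age; 95% interval 0.34 to 0.83; limma adjusted p = 0.0298). From 6 to 15 months it was 0.31 ± 0.11 (limma adjusted p = 0.316), and from 15 to 23 months 0.27 ± 0.11 (limma adjusted p = 0.441), so neither step passed by itself. In the authors' deposited table the change from young to old was 0.81 with an adjusted p of 0.000256. Without old replicate 3 the change was 0.65 (limma adjusted p = 0.0261). The call was lost without young replicate 1 (limma adjusted p = 0.104), young replicate 2 (0.0583), young replicate 3 (0.174), middle-aged replicate 2 (0.0513), old replicate 1 (0.0781) or old replicate 2 (0.0601), and when the 2 ages were fitted alone (0.0697), while the change lay between 0.51 and 0.65 over the fits without 1 library.

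The other activating receptors did not differ detectably between ages. Fcgr1, the high-affinity IgG receptor, was at 14.02, 14.18 and 14.01 in young, 14.31, 14.16 and 14.05 in middle-aged and 14.22, 14.25 and 14.18 in old libraries. The ages overlapped, and the difference of old against young was 0.15 ± 0.09 (95% interval -0.05 to 0.35; limma adjusted p = 0.455). Fcgr3, a low-affinity receptor that is abundant on microglia, was at 16.61, 16.92 and 16.77 in young, 16.85, 16.86 and 16.65 in middle-aged and 16.81, 16.83 and 16.70 in old libraries. The lowest and the highest of these 9 values were both from young libraries. Its difference of old against young was 0.01 ± 0.09 (limma adjusted p = 0.957), with an interval from -0.19 to 0.22 that leaves out a rise of the size seen for Fcgr4. Whether the Fcgr4 change differed from that of its relatives was not tested as a difference between genes.

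Fcgr2b, the inhibitory IgG receptor, was at 13.82, 13.94 and 13.80 in young, 13.96, 13.90 and 13.67 in middle-aged and 13.78, 14.05 and 13.68 in old libraries. The 3 ages overlapped throughout. Its difference of old against young was -0.02 ± 0.12 (95% interval -0.27 to 0.24; limma adjusted p = 0.952). Because the activating and inhibitory receptors compete for the same ligand, each was also set against Fcgr2b within the same library, as a difference of deposited log2 values that is read only for its change across libraries. Fcgr4 minus Fcgr2b was -3.54, -3.58 and -3.69 in young, -3.33, -3.31 and -3.21 in middle-aged and -2.96, -3.06 and -2.98 in old libraries. The 3 ages did not overlap, and the means moved from -3.61 ± 0.080 (SD, n = 3) through -3.28 ± 0.062 to -3.00 ± 0.053. The Fcgr4 values alone did not overlap between the 3 ages either. Fcgr3 minus Fcgr2b had means of 2.91, 2.94 and 2.94 at the 3 ages, and Fcgr1 minus Fcgr2b had means of 0.22, 0.34 and 0.38. Both overlapped between young and old. Pirb, itself inhibitory, also separated the 2 ages: Pirb minus Fcgr2b ran from -0.98 to -0.80 in young and from -0.60 to -0.46 in old libraries. With 3 libraries per age, the smallest p that an exact permutation test of these differences could reach is 0.1, so none is given.

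**Figure D2:**
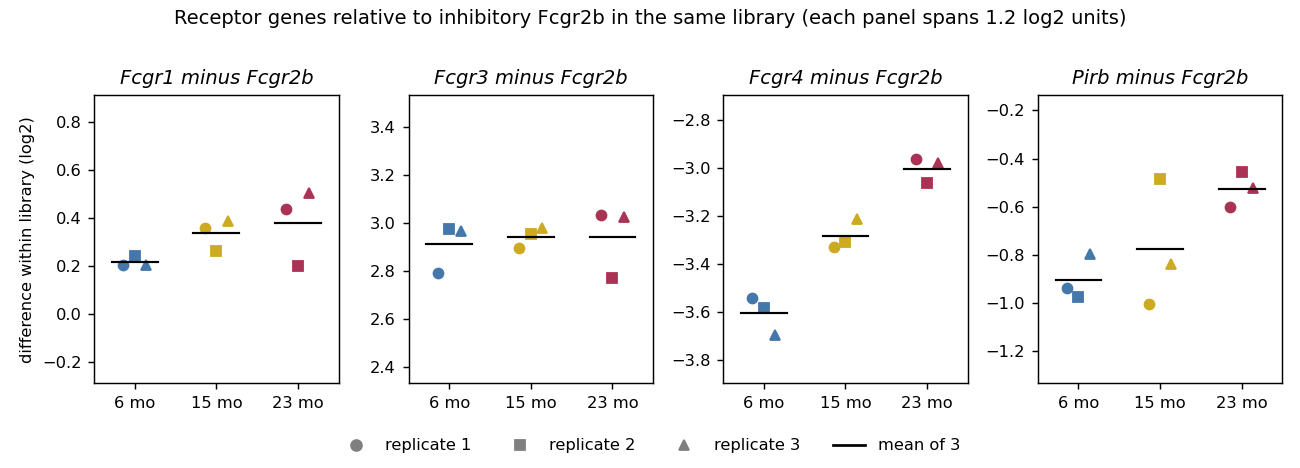
Difference between each activating or paired receptor and inhibitory Fcgr2b in the same library, in log2 units of the deposited values, by age, with the mean of each age; panels span the same range. Fcgr4 minus Fcgr2b rises from between -3.69 and -3.54 in young to between -3.06 and -2.96 in old libraries, without overlap. Pirb minus Fcgr2b does not overlap between young (-0.98 to -0.80) and old (-0.60 to -0.46) either, while Fcgr3 minus Fcgr2b overlaps between ages.

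Fcgr2b and Fcgr3 encode proteins with closely related extracellular parts, and the near-identity extends to their RNA. In the GENCODE M21 annotation of GRCm38 the longest run shared by their coding sequences was 129 bases, starting at base 278 of the 1020 coding bases of Fcgr2b and at base 263 of the 801 of Fcgr3. It is shown because a read that falls inside it cannot be placed in one gene or the other.
Shared coding run of Fcgr2b and Fcgr3: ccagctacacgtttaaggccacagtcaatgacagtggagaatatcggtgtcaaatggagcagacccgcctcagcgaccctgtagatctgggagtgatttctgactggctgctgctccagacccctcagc
Of the 1627 different 50-base words in the coding transcripts of Fcgr3, 166 (10.2%) also occurred in Fcgr2b. For Fcgr2b 6.72% of the words occurred in another gene. Fcgr1, Fcgr4, Fcer1g, Fcgrt, Fcrls and Lilra5 shared none with any other gene. How reads in shared stretches were counted is not stated in the labels used here.

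Fcgr2b, Fcgr4, Fcgr3 and Fcer1g are neighbours, lying within 276 kb of chromosome 1 (chr1:170958617-171234365, GRCm38). Fcgr4 (ENSMUSG00000059089.4, chr1:171018920-171029761, plus strand) sits between Fcgr2b (ENSMUSG00000026656.15, chr1:170958617-170976547, minus strand) and Fcgr3 (ENSMUSG00000059498.13, chr1:171051174-171064935, minus strand). Fcer1g (ENSMUSG00000058715.11, chr1:171229572-171234365, minus strand) is the last of the row. The gene that rose thus lies between 2 receptor genes whose ages overlapped. Of the others, Fcgr1 (ENSMUSG00000015947.10, chr3:96282909-96293969) and Fcrls (ENSMUSG00000015852.13, chr3:87250758-87263738) are on chromosome 3, and Fcgrt (ENSMUSG00000003420.8, chr7:45092990-45103851), Pirb (ENSMUSG00000058818.13, chr7:3711409-3720391) and Lilra5 (ENSMUSG00000070873.5, chr7:4237754-4243463) are on chromosome 7. Lilrb4a (ENSMUSG00000112148.1, chr10:51490956-51496611) is on chromosome 10.

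Fcer1g, the signalling chain that Fcgr1, Fcgr3 and Fcgr4 need for their surface expression in mice, was higher at both later ages without passing the test. Its values were 16.05, 15.99 and 15.92 in young, 16.25, 16.27 and 16.21 in middle-aged and 16.41, 16.19 and 16.44 in old libraries. No young library reached a middle-aged or old one, and old replicate 2 lay among the middle-aged values. The difference of old against young was 0.36 ± 0.08 (95% interval 0.18 to 0.54; limma adjusted p = 0.0518), and that of middle-aged against young was 0.26 ± 0.08 (limma adjusted p = 0.256). In the authors' deposited table both were called, at 0.44 with an adjusted p of 0.00992 for old and at 0.31 with 0.0158 for middle-aged against young. Without old replicate 2 the change reached 0.44 and passed (limma adjusted p = 0.0227), and without old replicate 3 it was 0.31 (limma adjusted p = 0.116). Fcer1g was thus called in 1 of 9 fits without 1 library, and in 3 of 11 other settings. Fcrls was called in 0 of those 9 fits and in 1 of those 11 settings. Against Tyrobp, which encodes the other common ITAM adaptor of microglia, Fcer1g was relatively lower at 23 months: Fcer1g minus Tyrobp averaged 0.31 ± 0.045 (SD, n = 3) in young, 0.27 ± 0.042 in middle-aged and 0.17 ± 0.060 in old libraries, and old did not overlap young.

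Promoter sequence is shown for the genes whose old and young libraries did not overlap, where the window before the RefSeq start (build GRCm38.p6) held no more than a short end of an annotated exon. Of the 10 genes, 9 matched the RefSeq promoter table; Lilrb4a did not. Each line gives the 150 bases before the start, read along the gene's strand, and capitals mark a match to GAGGAAGT (an element of the kind bound by PU.1, the master regulator of myeloid cells) or to an element of the interferon regulatory factor kind (GAAA, any 2 bases, then GAAA), searched on both strands.
Fcgr4, chr1:171018776-171018925, plus strand: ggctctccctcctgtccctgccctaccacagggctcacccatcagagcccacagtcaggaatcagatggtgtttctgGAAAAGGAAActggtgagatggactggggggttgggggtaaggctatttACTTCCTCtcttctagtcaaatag
Fcer1g, chr1:171234350-171234499, minus strand: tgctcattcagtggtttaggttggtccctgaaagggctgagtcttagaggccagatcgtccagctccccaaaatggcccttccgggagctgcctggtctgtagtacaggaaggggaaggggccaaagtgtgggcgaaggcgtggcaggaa
Pirb, chr7:3720383-3720532, minus strand: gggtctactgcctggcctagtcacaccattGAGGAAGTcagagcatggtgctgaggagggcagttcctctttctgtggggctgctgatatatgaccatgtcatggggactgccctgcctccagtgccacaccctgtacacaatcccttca
Fcgrt, chr7:45103823-45103972, minus strand: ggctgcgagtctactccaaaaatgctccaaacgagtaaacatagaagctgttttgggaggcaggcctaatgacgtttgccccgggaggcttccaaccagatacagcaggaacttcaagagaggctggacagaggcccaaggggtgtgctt
In windows from 250 bases before to 50 after the start, GAGGAAGT occurred in Fcgr4, at positions -24 to -17 on the opposite strand, and in Pirb, at -120 to -113. The same letters occurred in 3.20% of 32851 promoters. The interferon regulatory factor kind of element occurred in Fcgr4, at -73 to -64, and in 3.44% of promoters. Another pattern, TTCNNNGAA, of the kind bound by STAT factors, occurred in Fcgr1 (-109 to -101) and Lilra5 (-107 to -99) and in 8.30% of promoters. None of the matches overlapped another. Fcer1g, Fcgrt, Fcrls, Fcgr2b and Fcgr3 held none of the 3 patterns in this window. A match is a description of the letters and not of a bound factor.

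Fcrls, the marker of homeostatic microglia, and Fcgrt, the neonatal Fc receptor, had lower values at both later ages. Fcrls was at 17.94, 18.19 and 18.04 in young, 17.81, 17.64 and 17.61 in middle-aged and 17.76, 17.68 and 17.58 in old libraries. Every young library was above every later one, and middle-aged and old libraries overlapped. Its difference was -0.37 ± 0.09 for middle-aged against young (limma adjusted p = 0.168) and -0.39 ± 0.09 for old against young (95% interval -0.57 to -0.20; limma adjusted p = 0.0494). In the authors' deposited table it was called at both ages, at -0.43 with an adjusted p of 0.0147 for middle-aged and -0.47 with 0.00486 for old against young. The call for old against young was lost without any one of the 9 libraries (limma adjusted p from 0.0532 without middle-aged replicate 3 to 0.198 without young replicate 3; -0.34 and 0.117 without old replicate 3) and held in 1 of 11 other settings, that with library weights. The change itself stayed between -0.44 and -0.31 in all of these fits.

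Fcgrt was at 13.67, 13.92 and 13.83 in young, 13.60, 13.43 and 13.41 in middle-aged and 13.47, 13.47 and 13.36 in old libraries. Here too no young library overlapped a later one, although young replicate 1 was close to middle-aged replicate 1. The differences were -0.33 ± 0.09 (limma adjusted p = 0.238) for middle-aged and -0.37 ± 0.09 (95% interval -0.58 to -0.16; limma adjusted p = 0.0769) for old against young. The authors' deposited table called both, at -0.39 with an adjusted p of 0.0408 and -0.47 with 0.00486. Without old replicate 3 the difference of old against young was -0.34 (limma adjusted p = 0.151). Between 15 and 23 months neither gene moved detectably: the differences were -0.05 ± 0.09 for Fcgrt and -0.02 ± 0.09 for Fcrls (limma adjusted p = 0.901 and 0.960).

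The values of Fcrls and Fcgrt ran in parallel across the 9 libraries. Fcrls minus Fcgrt stayed between 4.20 and 4.29, a range of 0.085, while each gene alone ranged over 0.61 and 0.56. Measured by the root mean square difference of centred log2 values over the 9 libraries, Fcgrt was the nearest of 14954 other genes to Fcrls, at 0.032, and Fcrls was the nearest to Fcgrt. With unnamed gene models and pseudogenes left out, the next nearest to Fcrls were Snx17, an endosomal sorting nexin, at 0.051 and Tspan4, a tetraspanin, at 0.060. No other pair of the 10 receptor genes came closer than 0.075, the value for Fcgr1 and Lilra5. For Fcgr4, with the same genes left out, the nearest were Eef1a1, a translation elongation factor, at 0.067, Prelid1, a mitochondrial lipid transfer protein, at 0.071, and Anxa4, an annexin, at 0.071. Fcgr4 itself ranged over 0.88. These likenesses describe the same 9 libraries that the age comparisons use.

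**Figure D3:**
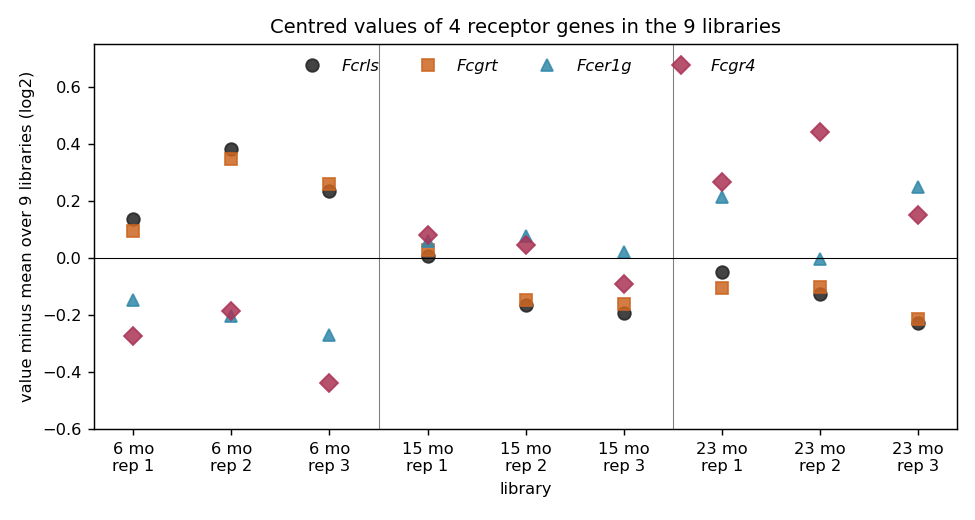
Log2 value minus the mean over the 9 libraries for Fcrls, Fcgrt, Fcer1g and Fcgr4, by library, with the 3 ages separated by vertical lines. Fcrls and Fcgrt points nearly coincide in every library, with a root mean square difference of 0.032, and are highest in the 3 young libraries, where Fcgr4 and Fcer1g are lowest.

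Pirb, which encodes an inhibitory receptor for MHC class I molecules, was at 12.88, 12.97 and 13.01 in young, 12.95, 13.42 and 12.83 in middle-aged and 13.18, 13.60 and 13.16 in old libraries. All old libraries were above all young ones, but replicate 2 of both later ages stood well above its group. The difference of old against young was 0.36 ± 0.16, a 1.28-fold change (95% interval 0.0050 to 0.72; limma adjusted p = 0.292); without old replicate 2 it was 0.22 (limma adjusted p = 0.482) and without old replicate 3 it was 0.44 (0.294). The summed linear level of 8 monocyte marker genes was also highest in these 2 libraries, at 72523 in middle-aged replicate 2 and 54824 in old replicate 2, against 26367 to 44594 in the other 7; the part of monocyte RNA in the Pirb values was not tested. Of the 50-base words in the coding transcripts of Pirb, 37.3% occurred in other genes, among them Pira2 with 20.7% and Lilra6 with 14.7%. Pira2 encodes an activating partner of the receptor, and the difference Pirb minus Pira2 averaged 4.45 in young and 4.47 in old libraries, with overlap.

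Lilra5, which encodes an activating receptor of the same family, was at 12.35, 12.38 and 12.31 in young, 12.51, 12.33 and 12.17 in middle-aged and 12.54, 12.48 and 12.33 in old libraries. The ages overlapped, with a difference of old against young of 0.11 ± 0.10 (95% interval -0.12 to 0.34; limma adjusted p = 0.643). Lilrb4a, an inhibitory receptor, was by far the least abundant of the 10, at 7.39, 7.18 and 7.08 in young, 7.22, 7.01 and 7.51 in middle-aged and 7.23, 7.22 and 6.83 in old libraries. Its ages overlapped, and its difference of old against young was -0.13 ± 0.15 (95% interval -0.46 to 0.20; limma adjusted p = 0.707). The low value of Lilrb4a is uncertain in another way. Of its 50-base words, 94.5% also occurred in another annotated gene, Gm49339 alone holding 92.5% and Lilr4b 28.5%; those 2 genes were not analysed here.

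**Figure D4:**
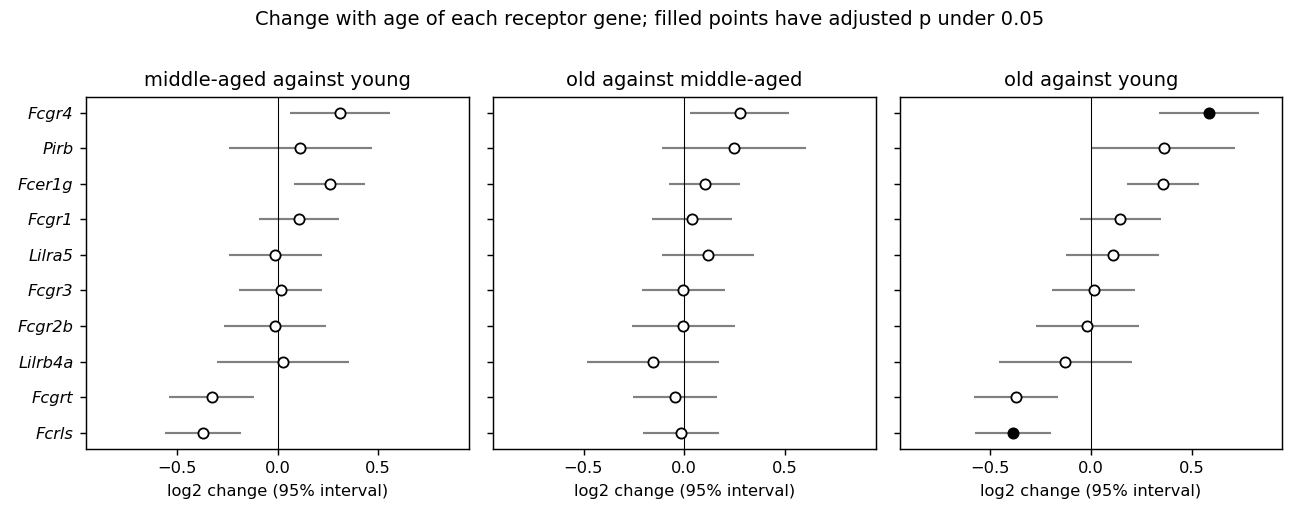
Log2 change of each receptor gene in the 3 pairwise comparisons of ages, with 95% intervals from the model; filled points have an adjusted p under 0.05. Only Fcgr4 (0.58) and Fcrls (-0.39) are filled, both in old against young, and Fcgr2b and Fcgr3 lie within 0.02 of 0 in all 3 panels.

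Each pair of ages was also read against the background of all genes. In middle-aged against young microglia limma called 0 of the 10 genes, where the background was 0.114% of all genes, all of them higher and 0% lower; 4 of the 10 had an unadjusted p under 0.05, beside 11.4% of all genes, and 4 did not overlap between the ages, Fcgr4 and Fcer1g higher and Fcrls and Fcgrt lower. Among all genes 21.6% did not overlap in that comparison, 11.6% higher and 10% lower. The authors' deposited table of middle-aged against young called 1 gene higher (Fcer1g) and 2 lower (Fcrls and Fcgrt), beside 3.26% and 2.53% of its genes. In old against middle-aged limma again called 0 of 10, beside 0.174% of all genes (0.16% higher and 0.0134% lower); 1 had an unadjusted p under 0.05, beside 10.2% of all genes, and Fcgr4 was the 1 gene whose ages did not overlap, beside 12.9% of all genes, 6.47% higher and 6.41% lower. The authors' deposited table of old against middle-aged called 0 of the 10 too, beside 0.859% higher and 0.466% lower. For old against young, 5 of 10 did not overlap (Fcgr4, Fcer1g and Pirb higher, Fcrls and Fcgrt lower), beside 24.5% of all genes (12.2% higher and 12.3% lower), and the authors' deposited table called 2 higher and 2 lower, beside 4.72% and 2.9%. The 2 comparisons with young share the young libraries, so they are not independent of each other, and whether the step to 15 months differed from the step to 23 months was not tested.

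Corrected for transcript length, the 10 genes spanned a 1032-fold range in the deposited values, whose transformation is not stated. The lower end is Lilrb4a, whose level is uncertain because 94.5% of its 50-base words also occurred in another gene. Per kilobase of the longest coding transcript, and on the linear scale of the deposited values, the median over the 9 libraries was 111294 for Fcer1g, 97527 for Fcrls and 85570 for Fcgr3. Their ranges overlapped pairwise, Fcer1g being above Fcrls in 6 of 9 libraries. Then came a drop of 11.9-fold to Fcgr1, at 7176, and Fcgrt, at 6421, whose ranges also overlapped. Fcgr2b, at 4071 per kilobase, was below Fcgrt and above Lilra5 in all 9 libraries. Lilra5 (2473) and Pirb (2152) overlapped, Fcgr4 followed at 1231, and Lilrb4a was 11.4-fold lower again at 108. So the activating receptor that rose with age was also the least abundant of the Fc gamma receptors at every age, while Fcgr3 exceeded it in every library.

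The other genes of Fc receptor signalling were taken from lists. Beside the counts for old against young, limma called 1.7% of all genes higher and 0.301% lower. The authors' deposited table called 4.72% higher and 2.9% lower. Of 11 other Fc receptors and adaptors tested, 1 rose and 1 fell from 6 to 23 months, with a median change of -0.01. Tyrobp rose by 0.50 ± 0.10 (limma adjusted p = 0.0331), from 15.77, 15.71 and 15.57 in young to 16.21, 15.98 and 16.34 in old libraries, with no overlap. Fcrl1, an Fc receptor-like gene known from B cells, fell by 0.44 ± 0.10 (limma adjusted p = 0.0477). Of 8 B and plasma cell markers 0 were called (3 had an unadjusted p under 0.05), and their summed level ran from 4135 to 4573 in young and from 3724 to 4195 in old libraries. Fcrl1 had a mean of 13.42 in young libraries, above the highest of these markers, Cd79b, with a mean of 11.66 over all libraries. The part of B cells in the Fcrl1 change was not tested. Without 1 library, Tyrobp kept its call for middle-aged replicate 3 and old replicate 2 and otherwise had adjusted p-values up to 0.180 (without young replicate 3), and Fcrl1 lost it in all 9 fits, with limma adjusted p from 0.0546 (without middle-aged replicate 3) to 0.236 (without young replicate 3).

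Of 17 other paired immunoglobulin-like receptors tested, 2 rose and 0 fell from 6 to 23 months, beside 1.7% and 0.301% of all genes, with a median of 0.18. Without overlap, 8 were higher in old than in young (12.2% of all genes were) and 2, Cd300a and Sirpa, were lower (12.3% of all genes were). The authors' deposited table called 7 of the 17 higher and 0 lower, beside 4.72% and 2.9% of its genes. Cd300lb, an activating receptor that pairs with DAP12, rose by 0.64 ± 0.12 (limma adjusted p = 0.0322), from 12.04, 12.41 and 12.09 to 12.77, 12.90 and 12.77. Sirpb1b, an activating member of the SIRP family, rose by 0.59 ± 0.12 (limma adjusted p = 0.0352), from 9.18, 9.03 and 9.12 to 9.61, 9.91 and 9.57. Both were called in 3 of the 9 fits that leave out 1 library, with adjusted p-values up to 0.176 for Cd300lb and 0.174 for Sirpb1b, each without young replicate 3. The genes Pira1, Pira6, Pira11, Lilr4b, Lilrb4b, Gp49a and Cd300lf were not analysed here.

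Downstream, 1 of 28 tested genes of the ITAM relay rose and 1 fell, with a median of -0.09. Without overlap 3 of the 28 were higher in old than in young and 8 were lower, beside 12.2% and 12.3% of all genes. The authors' deposited table called 2 of the 28 higher (Fgr and Lat2) and 3 lower (Vav2, Plcg1 and Pik3r1), beside 4.72% and 2.9% of its genes. Fgr, a Src-family kinase of myeloid cells, was at 12.29, 12.59 and 12.43 in young, 12.80, 13.09 and 12.65 in middle-aged and 13.32, 13.41 and 13.35 in old libraries. The 3 ages did not overlap, and Fgr rose by 0.93 ± 0.12 from young to old, or 1.90-fold (limma adjusted p = 0.00347), a call that held in all 11 other settings and all 9 fits without 1 library. The authors' deposited change for Fgr was 1.14. Vav2, an exchange factor activated by tyrosine kinases, fell by 0.55 ± 0.12 (limma adjusted p = 0.0427) and was called in 2 of those 9 fits (adjusted p up to 0.203, without young replicate 3). Of 10 ITIM effectors and negative regulators, 1 fell: Inpp5d, which encodes the lipid phosphatase SHIP1 recruited by the inhibitory IgG receptor, was at 17.05, 16.96 and 17.05 in young and 16.70, 16.74 and 16.51 in old libraries. It fell by 0.37 ± 0.08 (limma adjusted p = 0.0480). The call held in 1 of 9 fits without 1 library (adjusted p up to 0.221, without young replicate 3) and in 4 of 11 other settings. The median of its list was 0.13. Without overlap 2 of the 10 were higher in old than in young and 2 were lower, beside 12.2% and 12.3% of all genes. The authors' deposited table called 1 of the 10 higher, Ptpn22 (0.63, adjusted p 0.00633), and 1 lower, Inpp5d (-0.45, 0.00367).

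In the remaining lists 1 gene passed by limma in old against young. Of 21 engulfment and actin genes 0 were called by limma, with a median of 0.07, and 13 had an unadjusted p under 0.05, beside 16.8% of all genes in this comparison. The authors' deposited table called 4 of the 21 higher and 3 lower, beside 4.72% and 2.9% of its genes. Cfl1, which encodes cofilin, had an adjusted p of 0.0555 by limma, with a change of 0.43 ± 0.10. Of 9 immunoglobulin chain genes, of IgG and of other antibody classes, 0 were called by limma (4 had an unadjusted p under 0.05) and the median was 0.00. The authors' deposited table called 2 of these higher, Iglc2 (0.88, adjusted p 0.00290) and Jchain (0.70, 0.0194), and 1 lower, Igha (-0.81, 0.00508). None of the genes called there encodes an IgG heavy chain. By limma Ighd, which encodes the IgD heavy chain, stood at -0.48 ± 0.14 (adjusted p = 0.111). The list of 17 regulators of Fc receptor expression held transcription factors, cytokine receptors and the complement receptor gene C5ar1. Of these 17, 0 were called by limma (4 with an unadjusted p under 0.05), with a median of 0.02 and Mef2c at -0.26 ± 0.07 (limma adjusted p = 0.0711). The authors' deposited table called 1 of the 17 higher, Irf8 (0.41, adjusted p 0.0187), and 1 lower, Mef2c (-0.33, 0.0103). Of 5 other ligands and partners, 1 rose: H2-D1, an MHC class I heavy chain of the kind Pirb binds, was at 14.47, 14.85 and 14.45 in young, 14.30, 14.44 and 15.25 in middle-aged and 16.05, 16.09 and 16.42 in old libraries. Old libraries were above all others. It rose by 1.60 ± 0.22 against young (limma adjusted p = 0.00470) and by 1.52 ± 0.22 against middle-aged (0.0376), and the second call held in 1 of 9 fits without 1 library, that without middle-aged replicate 3 (adjusted p up to 0.131, without middle-aged replicate 2). MHC class I genes are near-identical to one another, so its level is uncertain. From 6 to 15 months limma called 0 genes in each of these 8 lists, with unadjusted p under 0.05 for 3, 3, 4, 2, 6, 2, 0 and 3 genes in the order of the lists' description: other Fc receptors, paired receptors, ITAM relay, ITIM effectors, engulfment, immunoglobulin chains, ligands and regulators. Over all genes 11.4% had such a p in that comparison. In the authors' deposited table of middle-aged against young 4 of the engulfment genes were called higher and 0 lower, and in each of the other 7 lists at most 1 gene was called in either direction.

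**Figure D5:**
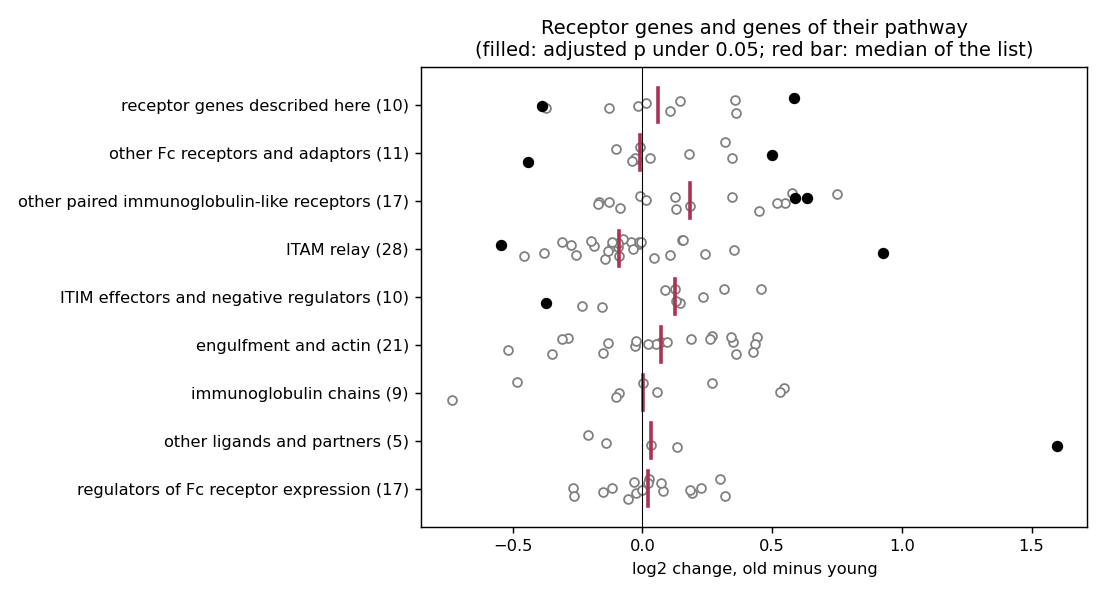
Log2 change of old against young for each tested gene of the 10 receptors and of 8 lists of pathway genes, with the number tested in parentheses, the median as a red bar and genes with an adjusted p under 0.05 filled. Fgr (0.93) and H2-D1 (1.60) lie farthest to the right, and the list medians lie between -0.09 and 0.18.

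Markers of microglia and of other cells moved with age as well. Beside the counts called here for old against young, limma called 1.7% of all genes higher and 0.301% lower. Of 8 monocyte markers 2 rose from young to old, with a median of 0.40. Without overlap 3 of them were higher in old than in young and 0 were lower, beside 12.2% and 12.3% of all genes. Their summed level was 26367 to 37010 in young, 36358 to 72523 in middle-aged and 29655 to 54824 in old libraries, so the sums overlapped. Chil3, which had the highest mean of the 8 at 14.13, weighed most in these sums. Of 10 neutrophil markers 0 were called in old against young (0 had an unadjusted p under 0.05), with a median of -0.03, and their summed level was 263081 to 488852 in young and 213644 to 487743 in old libraries. The middle-aged replicate 2 library had the highest neutrophil sum, 979697. Of 10 border macrophage markers 1 fell, with a median of -0.43. Without overlap 8 of them were lower in old than in young, beside 12.3% of all genes, and 1, Ms4a7, was higher, beside 12.2%; their sum lay below the young range of 125302 to 132880 at both later ages (89756 to 111039, then 82661 to 104836). Of 8 microglial markers 1 fell, with a median of -0.22, and 6 were lower in old than in young without overlap, beside 12.3% of all genes. Their sum too lay below the young range of 1593820 to 1821270 at both later ages (1338550 to 1541290, then 1259590 to 1504470). Of 10 T and NK cell markers 1 rose and 7 were higher in old than in young without overlap, beside 12.2% of all genes. Their median was 0.23 and their sum was 1508 to 1738 in young and 1852 to 2309 in old libraries. Of 6 dendritic cell markers 1 fell, with a median of -0.10 and a sum of 13438 to 17063 in young and 8852 to 10437 in old libraries. Without overlap 3 of the 6 were lower in old than in young and 0 were higher, beside 12.3% and 12.2% of all genes. Of 9 endothelial markers 2 rose, with a median of 0.08 and sums that overlapped, 5193 to 5992 in young and 5634 to 6345 in old libraries. Without overlap 3 of the 9 were higher in old than in young and 1 was lower, beside 12.2% and 12.3% of all genes. None of the markers in these 7 lists was below the filter on low values. The part of these cells in the rise of Fcgr4, the higher values of Fcer1g and the lower values of Fcrls and Fcgrt was not tested.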

How the data were processed

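The deposited per-library table, named for normalized counts, holds log2 values made by the authors with a transformation that no label states. Per the file headers, the authors' deposited comparison tables give for each pair of ages a mean signal per gene, a log2 fold change, a test score, and a p-value with its adjusted p-value. Per the labels' protocols, cells of 3 mice were pooled before extraction with an RNeasy micro kit, and libraries were made with a SMARTer Ultra Low RNA kit. The submitters' processing notes name CASAVA, cutadapt 1.13, STAR 2.5.3, DESeq2 1.16.1 and mm10, without their roles; the read counter is not stated there.

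Depth is unknown, so no counting interval is given and the 3 libraries per age limit the precision. Values were used as deposited. Genes at or above 3.32 (log2 of 10) in at least 3 libraries were fitted with limma 3.58.1 in R 4.3.3, as a linear model of the 3 ages with a variance trend, over all 14955 such genes. Tests were two-sided, with Benjamini-Hochberg adjustment over all of them and a threshold of 0.05. The fit had 6 residual and 4.57 prior degrees of freedom and was tested on simulated data. There it called 26% of genes changed by 0.3 log2 units in old against young, 40% of those changed by 0.5 and 94% of those changed by 1. In middle-aged against young these shares were 18%, 50% and 86%. A change of the size of most of those described here could thus be missed. The 10 members and the gene lists were chosen with earlier results of these data known. Named genes were the 10 members; from each list of pathway genes those called in any comparison (up to 4), otherwise the 1 with the smallest unadjusted p in old against young; and the 3 genes nearest to each called member. Unnamed gene models, pseudogenes and mitochondrially encoded genes were left out when nearest genes were listed, but not from the rank of Fcrls and Fcgrt to each other. Genes near Fcgrt and the marker genes named for their level were chosen after their values were seen. Alternatives were another filter or none, pseudocounts, median or quantile scaling, other variance models, weighted libraries, a replicate block, pairs of ages fitted alone and each library left out. A search of protein sequences for signalling motifs was planned; protein sequences were not used here. Coordinates come from GENCODE M21 on GRCm38, which mm10 names, and promoters from RefSeq on GRCm38.p6. Figures were drawn with matplotlib 3.10.9.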

Additional observations from a re-analysis of the deposited data

How the results depend on the processing

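The number of the 10 receptor genes called in old against young, 2, was 0 when the 2 ages were fitted alone, 1 with no filter on low values, pseudocounts of 1 or 10, median centring, quantile normalization, robust variance or the replicate block, 4 with library weights, and 0 to 1 without 1 library. It stayed at 2 with a filter at 50 and with no variance trend, where the genes called were Fcgr4 and Fcer1g, not Fcrls. In middle-aged against young it was 1 with library weights, Fcrls, against 0, and 0 in all 9 fits without 1 library. Over all genes, the 17 calls in middle-aged against young became 10 with no filter, 29 with a filter at 50, 312 with library weights and 11 with the replicate block, and 4 (without any one young library) to 49 (without old replicate 3). The 299 calls in old against young became 170 with no filter, 1609 with library weights, 185 with the replicate block and 153 with 2 ages alone, and 84 (without young replicate 3) to 322 without 1 library. The 26 calls in old against middle-aged became 9 with no filter, 47 with a filter at 50, 3 with no variance trend, 62 with library weights, 14 with the replicate block and 0 with 2 ages alone, and 3 (without any one young library) to 23 in fits without 1 library. The cause of these shifts was not tested.

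Correlations of the deviations of same-numbered libraries ran from -0.24 to 0.23 over 9 pairs, 3 of them over 0.1. Pairs with different numbers reached 0.42 (young replicate 1 and middle-aged replicate 3) and -0.44 (young replicate 2 and middle-aged replicate 3). These correlations cannot show whether same-numbered libraries share a batch, which was not tested. The block is therefore given as an alternative only. With the replicate block Fcgr4 kept its call in old against young (limma adjusted p = 0.0296) and Fcrls did not (0.0756).

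Signs turned only for small changes. With library weights Fcgr2b became 0.033 in middle-aged against young and 0.0017 in old against young, Lilra5 0.025 in middle-aged against young, Lilrb4a 0.033 in old against young, and, in old against middle-aged, Fcgr3 0.0047, Fcrls 0.030, Inpp5d 0.021 and Ighd 0.082. With quantile normalization Fcgr2b became 0.0080 in old against middle-aged. Without 1 library, middle-aged against young ran from -0.069 to 0.074 for Fcgr2b, -0.063 to 0.093 for Fcgr3, -0.11 to 0.15 for Lilrb4a, -0.063 to 0.23 for Pirb, -0.095 to 0.074 for Lilra5 and -0.22 to 0.26 for H2-D1. Old against young ran from -0.13 to 0.063 for Fcgr2b, -0.067 to 0.089 for Fcgr3 and -0.19 to 0.0027 for Lilrb4a. Old against middle-aged ran from -0.022 to 0.11 for Fcgr1, -0.11 to 0.075 for Fcgr2b, -0.073 to 0.035 for Fcgr3, -0.080 to 0.016 for Fcgrt, -0.060 to 0.045 for Fcrls, -0.082 to 0.031 for Inpp5d and -0.14 to 0.12 for Ighd.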

Other observations

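Several paired receptors beyond those called lay higher in old microglia without passing the limma test, and they are named here after their values were seen. Sirpb1a and Sirpb1c, relatives of Sirpb1b in the activating SIRP family, differed between old and young by 0.58 ± 0.13 (SE, n = 3 libraries per age; limma adjusted p = 0.0535) and 0.75 ± 0.18 (limma adjusted p = 0.0667). Pilra, an inhibitory receptor, differed by 0.55 ± 0.14 (limma adjusted p = 0.0794) and Cd300ld by 0.52 ± 0.16 (limma adjusted p = 0.140). The authors' deposited table called all 4, Sirpb1a at 0.90 (adjusted p 0.00158), Sirpb1c at 1.07 (8.83e-05), Pilra at 0.71 (6.24e-07) and Cd300ld at 0.62 (0.0133). In each of the 4 all old libraries were above all young ones. Pilrb1, not called by limma either, was also called in the authors' deposited table, at 0.83 (adjusted p 0.000336). Its values ran from 8.78 to 8.93 in young and from 9.20 to 9.36 in old libraries. Near-identical stretches among the Sirpb1 genes were not examined here.

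The genes nearest to Fcer1g over the 9 libraries are also named after their values were seen, with unnamed gene models and pseudogenes left out. They were Cox6b1, a subunit of cytochrome c oxidase, at a root mean square difference of 0.019 log2 units, Rpl21, a ribosomal protein, at 0.039, and Nop10, a small nucleolar protein, at 0.040. Fcer1g itself ranged over 0.52. By the same listing the gene nearest to Fcgr1 was Galnt1, at 0.039, and the gene nearest to Pirb was Iqgap1, at 0.10.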
